A study of Mus musculus with 14 samples.

Results

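The fibroblast growth factor (FGF) ligands and receptors measured here were the 17 probe sets annotated to exactly 1 of Fgfr1, Fgfr2, Fgfr3, Fgfr4, Fgf7, Fgf9, Fgf10, Fgf13 and Fgf15, out of 20393 probe sets with 1 gene symbol. They stood for 9 of 12394 genes. Fgfr4 had 5 probe sets, Fgfr1, Fgfr2, Fgfr3 and Fgf13 had 2 each, and Fgf7, Fgf9, Fgf10 and Fgf15 had 1 each.

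RNA of mouse small intestine was hybridised to single-colour oligonucleotide arrays, in 4 groups. Villi and crypts, 3 samples of each, came from C57BL/6 mice aged 12 weeks. Endoderm and mesenchyme, 4 samples of each, were dissected after collagenase digestion from intestines at embryonic day 12 (E12), and each was a pool of fetuses. One pool of each layer held material of 35 fetuses and shares a value table of 8 arrays with the adult samples. The other 3 pools of each layer, from 10 to 12 fetuses, form a separate table of 6 arrays. Values are log2 signals, and because the 2 tables were normalised separately every test stayed within a table. No group carried a mutation or a treatment. A villus or crypt preparation still holds every epithelial cell type of that compartment, with any stroma and lymphocytes that came along, and the E12 layers are mechanical fractions. Pooling averages over animals, so the spread between E12 arrays is that between pools.

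FGF receptors are receptor tyrosine kinases of the cell surface. Secreted FGFs bind them together with heparan sulfate chains, and the signal runs through adaptor proteins to the RAS and MAP kinase pathway, which switches on its own inhibitors of the Sprouty and dual-specificity phosphatase families. In the developing gut, ligands often pass from one tissue layer to the other: Fgf10 and Fgf7 are known as mesenchymal ligands of an epithelial form of Fgfr2, and Fgf9 as an epithelial ligand that reaches receptors of the mesenchyme. Fgf15 is a hormone of the ileal epithelium, released in response to bile acids, that acts on Fgfr4 with its coreceptor Klb in the liver. Fgf13 belongs to a subfamily that is kept inside the cell and binds voltage-gated sodium channels.

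The labels held against marker genes. In the 6-array table, the mean log2 signal over 8 epithelial markers was 11.12 to 11.25 in endoderm and 5.99 to 6.47 in mesenchyme, while 8 mesenchymal markers had 5.66 to 6.17 in endoderm and 10.50 to 10.64 in mesenchyme. In the 8-array table, 6 enterocyte markers had 11.58 to 12.14 in villi and 6.83 to 6.89 in crypts, and 7 markers of proliferating and crypt base cells had 6.64 to 7.28 in villi and 9.79 to 9.99 in crypts. Replicates of a group correlated at r = 0.963 to 0.997 over all probe sets. The 30th percentile of the arrays, used here as a sign of a dim signal, lay at 4.70 to 4.78 in the 6-array table and at 5.71 to 5.88 in the 8-array table. A difference measured with 1 side below it is likely compressed.

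Between the E12 layers, Fgfr4, Fgfr3 and Fgf9 were higher in endoderm, and Fgfr1 and Fgf13 were higher in mesenchyme. The difference was 17.9-fold for Fgfr4 in the probe set with the largest difference and 10.5-fold, in the other direction, for Fgf13. Of the 17 probe sets, 5 were higher in endoderm and 4 were lower at an adjusted p under 0.05 in limma (3 pools against 3), which covers 5 of the 9 genes. Over all 20393 probe sets, 18.5% were higher and 17.6% were lower by the same rule. The arrays of both layers did not overlap for 11 of the 17, against 49.1% of all probe sets. The median difference was 0.13 over the members and 0.03 over all probe sets. With each array centred on its median, the overall median difference became 0.14 and the split of all calls moved to 5123 higher and 2957 lower, against 3776 and 3597 on the values as deposited; the number of called FGF probe sets was 9 under both.

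Fgfr4, the receptor that works with Klb in bile acid regulation, had the largest difference among the members. Its probe set 1418596_at gave 8.88, 8.59 and 8.76 in endoderm pools 2, 3 and 4, against 4.41, 4.71 and 4.63 in mesenchyme pools 2, 3 and 4. The endoderm arrays were far above the mesenchyme arrays, which all lay under the 30th percentile of their array. The log2 difference was 4.16 ± 0.12 (SE, n = 3 pools per layer; limma adjusted p = 2.9e-07). Probe sets 1427776_a_at and 1427777_x_at were higher in endoderm as well, by 1.74 ± 0.23 (adjusted p = 0.00077) and 1.22 ± 0.16 (adjusted p = 0.00068) on the log2 scale. The remaining Fgfr4 probe sets did not pass the test: 1427845_at differed by 0.16 (adjusted p = 0.21), with all 6 arrays under the 30th percentile, and 1427846_x_at by 0.18 (adjusted p = 0.27). The suffix _x_at marks probe sets whose probes may hybridise to other transcripts, and 2 of the 5 carry it. Arrays of whole layers cannot tell fewer cells of a type from less RNA per cell, for this gene or any other below.

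Some liver markers moved with Fgfr4, a gene that hepatocytes are known to express. The mean log2 signal over 5 such markers was 7.01 to 7.20 in endoderm pools and 4.69 to 4.98 in mesenchyme pools. Afp, Ttr and Fgb, 3 of the 5, were higher in endoderm, by 5.84, 4.22 and 1.12 on the log2 scale. Alb and Apoh did not pass the test, with 4.30 and 4.59 in endoderm and 4.31 and 4.63 in mesenchyme. These means lay under the 30th percentiles of the arrays, 4.70 to 4.78. Whether hepatocytes were present in the endoderm pools, and their part in the Fgfr4 difference, was not tested.

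Fgfr3, a receptor known in the intestine from the crypts, followed Fgfr4 with a smaller step. Its probe set 1421841_at had 7.31, 7.33 and 7.39 in endoderm pools, against 5.39, 5.47 and 5.70 in mesenchyme pools. The endoderm values lay close together (SD 0.04) and above every mesenchyme value, and the difference was 1.82 ± 0.10 (3.54-fold, adjusted p = 7e-06). The other probe set, 1425796_a_at, had 4.69, 5.52 and 5.94 in endoderm and 4.86, 4.73 and 4.67 in mesenchyme. Endoderm pool 2 fell among the mesenchyme values there, and the difference of 0.63 ± 0.29 did not pass the test (adjusted p = 0.13). Without endoderm pool 2 it was 0.98 and passed (adjusted p = 0.00078).

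The sequences before the annotated starts are shown for the pair of receptors that were higher in endoderm and for Fgf13, which had the largest difference in the other direction. Each line gives the 250 bases upstream of a start, 5′ to 3′ on the gene's strand, from RefSeq on GRCm38.p6. Capitals mark GGGCGG, the core of the GC box bound by SP1-like factors, on either strand; no printed window held the other motifs searched on both strands, which were TATAAA of the TATA box, TTTATG of CDX factors and AGATAA of GATA factors.
Fgfr4, chr13:55152568-55152817, plus strand: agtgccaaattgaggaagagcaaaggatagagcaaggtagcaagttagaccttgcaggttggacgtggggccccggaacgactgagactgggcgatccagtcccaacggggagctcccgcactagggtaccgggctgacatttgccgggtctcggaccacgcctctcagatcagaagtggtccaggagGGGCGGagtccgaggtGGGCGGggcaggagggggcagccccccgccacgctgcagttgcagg
Fgfr3, chr5:33721474-33721723, plus strand: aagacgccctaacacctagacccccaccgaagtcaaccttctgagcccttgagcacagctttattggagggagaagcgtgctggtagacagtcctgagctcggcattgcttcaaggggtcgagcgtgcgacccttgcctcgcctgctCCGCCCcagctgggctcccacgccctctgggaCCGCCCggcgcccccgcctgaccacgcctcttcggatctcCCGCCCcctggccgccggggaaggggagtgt
Fgf13, chrX:59585573-59585822, minus strand: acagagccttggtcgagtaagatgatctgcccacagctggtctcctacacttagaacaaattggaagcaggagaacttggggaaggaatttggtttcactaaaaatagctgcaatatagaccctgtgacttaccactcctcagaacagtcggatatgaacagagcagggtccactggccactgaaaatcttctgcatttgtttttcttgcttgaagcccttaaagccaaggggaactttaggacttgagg

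The Fgfr4 window held 2 GC box cores and the Fgfr3 window 3. The Fgf13 window, the most upstream of 4 annotated starts, held 0, and 2 of the other Fgf13 windows held 4 and 3. Over 32851 windows of the same length in the table, 32.7% held at least 1 GC box core, 12.4% TATAAA, 10.8% TTTATG and 9.99% AGATAA. The G and C content was 64.0% for Fgfr4, 66.8% for Fgfr3 and 45.6% for this Fgf13 window, beside a median of 52.4% over all windows. The other Fgf13 windows had 74.8%, 74.4% and 40.4%. A second Fgfr3 window, not printed, had 72.8% and 2 GC box cores. A contrast between Fgf13 and the receptors thus depends on the window shown. The table had windows for 7 of the 9 genes. The other two were Fgfr1 and Fgf15.

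Fgfr1, which many mesenchymal cells express, was lower in endoderm with both of its probe sets. Probe set 1424050_s_at had 7.67, 6.83 and 7.09 in endoderm pools, against 8.55, 8.77 and 8.38 in mesenchyme pools, a difference of -1.37 ± 0.22 (adjusted p = 0.0019). Probe set 1425911_a_at had 5.98, 6.53 and 6.80 in endoderm, against 8.27, 8.28 and 8.13 in mesenchyme, a difference of -1.79 ± 0.20 (adjusted p = 0.00029). In both, each endoderm value lay below each mesenchyme value, and no array was under the 30th percentile.

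Fgfr2, the receptor of Fgf7 and Fgf10, was well above the 30th percentile in both layers, and its difference did not pass the test. Probe set 1433489_s_at had 9.91, 9.57 and 9.71 in endoderm pools and 9.99, 9.64 and 9.87 in mesenchyme pools. These overlapped, and the difference of -0.10 had a 95% interval of -0.40 to 0.20 (adjusted p = 0.59). Probe set 1420847_a_at had 7.04, 8.55 and 8.65 in endoderm, against 9.16, 8.81 and 9.13 in mesenchyme. Every endoderm value was lower, with pool 2 far below the other two, and the difference was -0.95 ± 0.40 (adjusted p = 0.11). Without endoderm pool 2 it shrank to -0.43 and passed the test (adjusted p = 0.024). Which splice form of the receptor each probe set reads was not analysed here.

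**Figure D1:**
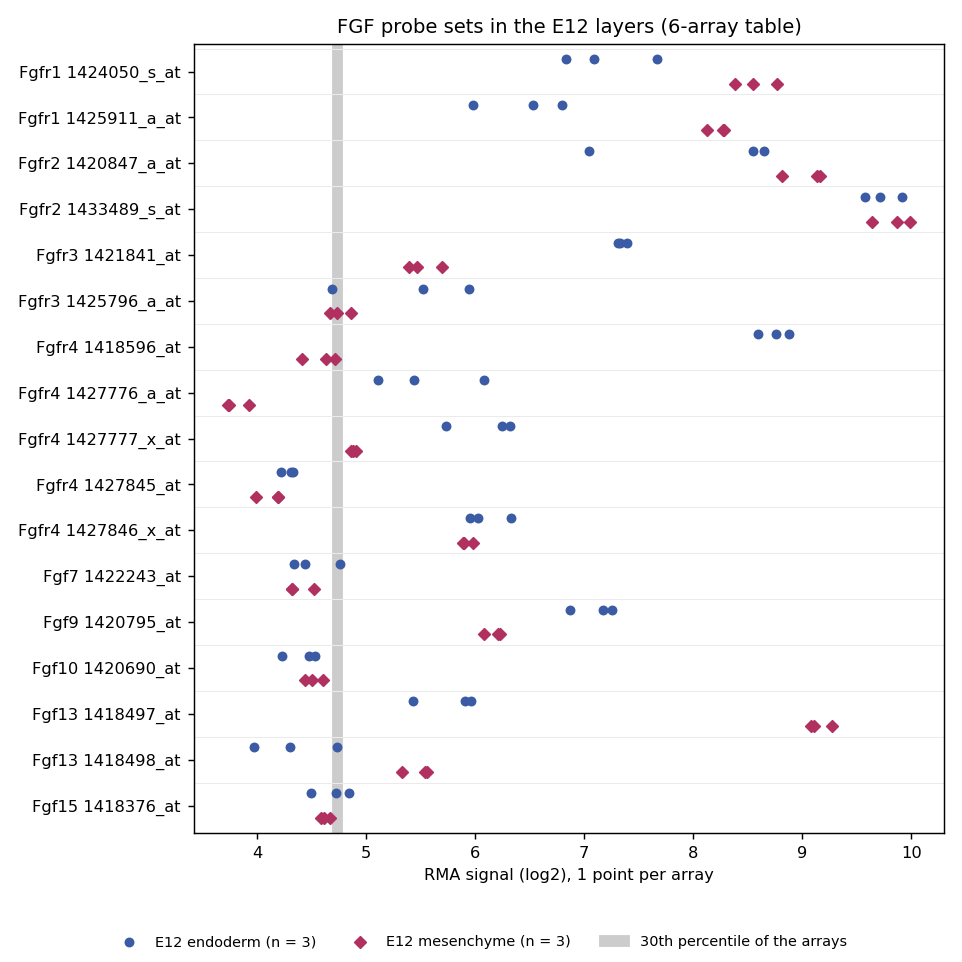
RMA signal (log2, horizontal axis) of the 17 FGF probe sets in E12 endoderm (circles) and E12 mesenchyme (diamonds), 1 point per pool and n = 3 per layer; the grey band is the range of the arrays' 30th percentiles. Fgfr4 1418596_at and Fgf13 1418497_at separate the layers most, in opposite directions, and Fgf7, Fgf10 and Fgf15 sit at or near the band in both layers.

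Among the ligands, Fgf9 was higher in endoderm. It had 7.25, 6.87 and 7.17 in endoderm pools, against 6.21, 6.08 and 6.23 in mesenchyme pools. All endoderm values were above all mesenchyme values, and the difference was 0.92 ± 0.12, or 1.90-fold (adjusted p = 0.00065).

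Fgf13, the intracellular member, was lower in endoderm. Its probe set 1418497_at had 5.96, 5.43 and 5.91 in endoderm pools, against 9.27, 9.11 and 9.08 in mesenchyme pools, a difference of -3.39 ± 0.15 (adjusted p = 2.3e-06). Its second probe set, 1418498_at, had 4.73, 4.30 and 3.97 in endoderm, against 5.54, 5.33 and 5.56 in mesenchyme, a difference of -1.14 ± 0.19 (adjusted p = 0.0024). The direction was shared, and the dimmer probe set had all 3 endoderm arrays under the 30th percentile. Fgf13 is known from neurons, and 5 of 5 measured markers of enteric neurons and glia were lower in endoderm as well. Their mean log2 signal was 4.80 to 4.93 in endoderm and 8.31 to 8.46 in mesenchyme. Also lower were 8 of 8 markers of mesenchyme, 6 of 6 of smooth muscle, 6 of 6 of endothelium and 4 of 5 of myeloid cells. The part of any of these cell types in the Fgf13 difference was not tested.

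The mesenchymal ligands Fgf7 and Fgf10 and the hormone Fgf15 were dim in both E12 layers. Fgf7 ranged from 4.34 to 4.76 in endoderm and from 4.32 to 4.52 in mesenchyme. Fgf10 ranged from 4.23 to 4.53 in endoderm and from 4.44 to 4.60 in mesenchyme, with all 6 arrays under the 30th percentile. Fgf15 ranged from 4.49 to 4.84 in endoderm and from 4.59 to 4.67 in mesenchyme. The layers overlapped for each of these, and the differences were 0.13, -0.10 and 0.06, with adjusted p of 0.50, 0.52 and 0.71. At signals this close to background, a difference between the layers was not detectable with these probe sets.

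The pools of 35 fetuses in the 8-array table, 1 array per layer and without a test, gave a difference of the same sign for all 17 probe sets. Some of these differences were close to 0, such as 0.04 for Fgf15. The share with the same sign over all probe sets, called or not, was not analysed. Of the 9 that were called in the 6-array table, 9 had the same sign in this pair, beside 93.6% of all 7373 called probe sets. Fgfr4 1418596_at had 8.21 in endoderm and 5.80 in mesenchyme. Fgfr3 1421841_at had 7.11 in endoderm and 5.98 in mesenchyme, and Fgf9 had 7.19 in endoderm and 5.90 in mesenchyme. Fgf13 1418497_at had 5.53 in endoderm and 8.59 in mesenchyme. Fgfr2 1420847_a_at, which missed the threshold in the 6-array table, had 8.03 in endoderm and 9.44 in mesenchyme. With all 8 E12 arrays in 1 fit and the table as a term, its difference was -1.07 (adjusted p = 0.034).

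Genes around the receptors were called in both directions between the layers, as were all probe sets (18.5% higher and 17.6% lower). Of 9 measured feedback and target genes of FGF signalling, 2 were higher and 2 were lower in endoderm, with a median of -0.09. Spry1, a Sprouty inhibitor of receptor tyrosine kinase signalling, was higher by 1.07 ± 0.16, and the ETS factor Etv4 by 0.79. Spry2, another Sprouty gene, was lower, with -0.78. Dusp6, a phosphatase of ERK, differed most, with 7.03, 7.65 and 7.43 in endoderm pools against 9.36, 9.02 and 9.36 in mesenchyme pools, a difference of -1.88 ± 0.17 (adjusted p = 0.00012). Of 16 coreceptors and heparan sulfate genes, 5 were higher and 9 were lower (median -0.50): the cell surface proteoglycan Sdc4 was higher by 2.48 and the glypican Gpc4 differed by -2.66. Klb, the coreceptor of Fgfr4, was also higher, with 5.98, 6.20 and 6.47 in endoderm pools against 4.88, 4.43 and 4.62 in mesenchyme pools (difference 1.57 ± 0.16, adjusted p = 0.0002). Of 12 transducers, 2 were higher and 2 were lower (median 0.05), with the adaptor Shc1 at -1.43 and the GTPase Nras at 0.75.

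Of 18 other ligands and binding proteins, 2 were higher and 1 was lower (median 0.09). Fgfbp1, a secreted carrier of FGFs, was higher by 2.00 ± 0.24 (adjusted p = 0.00043), and Fgf6, dim in both layers, by 0.31 (adjusted p = 0.045). The count of 3 called genes was 1 with quantile normalisation, with a filter on dim signals, and with any array other than that of endoderm pool 2 left out. The epithelial splicing factors Esrp1 and Esrp2, which favour the epithelial forms of Fgfr1, Fgfr2 and Fgfr3, were higher in endoderm. Esrp1 had 10.24, 10.04 and 10.05 in endoderm pools, against 3.74, 4.52 and 4.56 in mesenchyme pools (difference 5.84 ± 0.22, adjusted p = 9.1e-07). Esrp2 was higher by 3.98 and Rbfox2, another splicing factor, differed by -1.28, so 3 of 4 splicing regulators passed the test. Of 5 bile acid genes linked to Fgf15, Slc51a, a bile acid exporter subunit, and Nr1h4, the bile acid receptor FXR, were higher, by 3.22 and 1.22, and 0 were lower (median 0.21).

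Adult epithelium was then set against E12 endoderm in the 8-array table. In crypts, 8 of 17 FGF probe sets were lower than in E12 endoderm and 0 were higher. Over all probe sets, 13.6% were lower and 6.36% were higher. In villi, 8 of 17 were lower and 0 were higher, beside 19.0% lower and 12.9% higher over all probe sets. The called probe sets belonged to Fgfr1, Fgfr2, Fgfr4, Fgf9 and Fgf13 in both comparisons. These comparisons share their only E12 endoderm array, from the pool of 35 fetuses, which the fit assumes to vary like the adult groups (4 residual degrees of freedom). They are therefore not independent of each other.

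Fgfr4 1418596_at had 6.29, 6.23 and 6.14 in villus samples V12, V41 and V275 and 6.26, 6.24 and 6.07 in crypt samples K12, K21 and K41, against 8.21 in E12 endoderm. Both adult compartments lay below the E12 array, with differences of -2.00 ± 0.16 for villi (3.99-fold, adjusted p = 0.00021) and -2.03 ± 0.16 for crypts (4.07-fold, adjusted p = 0.00039). The adult values were only a little above the 30th percentile, at percentiles 35.7 to 39.7 of their arrays. The E12 mesenchyme array had 5.80, at percentile 31.1. Probe set 1427776_a_at was lower as well, with -1.85 in villi and -1.64 in crypts, but all 8 arrays, E12 endoderm included, lay under the 30th percentile for it. The other three Fgfr4 probe sets had differences between -0.31 and 0.17 that did not pass the test. Some liver markers again ran alongside. The mean log2 signal of the list was 6.22 to 6.31 in villi and 6.03 to 6.36 in crypts, against 7.25 in E12 endoderm. Of the markers, 2 of 5 (Afp and Ttr) were lower in both, and Apoh was higher in crypts. The part of liver cells in the adult Fgfr4 differences was not tested.

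Fgfr2 was lower in adult epithelium with both probe sets. Probe set 1433489_s_at had 8.25, 8.39 and 8.43 in villi and 8.64, 8.46 and 8.31 in crypts, against 10.03 in E12 endoderm. The differences were -1.67 ± 0.18 for villi (adjusted p = 0.00068) and -1.56 ± 0.18 for crypts (adjusted p = 0.0019). Probe set 1420847_a_at gave -1.14 for villi (adjusted p = 0.0062) and -1.10 for crypts (adjusted p = 0.012). In this table the E12 mesenchyme array had the highest signal for Fgfr2, at 10.67 and 9.44 with these probe sets, and villi and crypts overlapped at the bottom.

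Fgfr1 was near background in adult epithelium. Probe set 1424050_s_at had 4.56, 4.68 and 4.47 in villi and 4.55, 4.60 and 4.36 in crypts, against 5.75 in E12 endoderm. All 6 adult arrays were under the 30th percentile, and the differences were -1.18 ± 0.17 for villi (adjusted p = 0.0023) and -1.25 ± 0.17 for crypts (adjusted p = 0.0037). Probe set 1425911_a_at differed by -1.03 for villi (adjusted p = 0.025) and by -1.10 for crypts (adjusted p = 0.03). The crypt difference missed the threshold without crypt sample K12 (-1.05, adjusted p = 0.076) and without crypt sample K41 (-0.97, adjusted p = 0.052).

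Fgf13 1418497_at had 4.60, 4.52 and 4.76 in villi and 4.48, 4.04 and 4.08 in crypts, against 5.53 in E12 endoderm. All of these lay under the 30th percentile. The differences were -0.90 ± 0.22 for villi (adjusted p = 0.019) and -1.33 ± 0.22 for crypts (adjusted p = 0.0069). The other Fgf13 probe set, 1418498_at, differed by 0.02 for villi and -0.27 for crypts and did not pass the test. It was the brighter of the pair in this table, and also lay under the 30th percentile in all 8 arrays. Fgfr1 with both probe sets and Fgf13 with 1418497_at only, higher in E12 mesenchyme, were thus also lower in adult epithelium than in E12 endoderm. Some mesenchymal markers moved alongside. The mean log2 signal over 8 was 5.93 to 6.10 in villi and 5.86 to 5.91 in crypts, against 6.84 in the E12 endoderm array. Of the 8, 3 (Col3a1, Vim and Lum) were lower in both adult compartments and 5 were not called. The median difference over the list was -0.10 in villi and -0.09 in crypts, beside 0.11 and 0.07 over all probe sets. The 5 markers of enteric neurons and glia gave 0 calls, with medians of 0.07 in villi and 0.22 in crypts. The 6 endothelial markers gave 0 calls, with medians of 0.23 and 0.17. Of 6 smooth muscle markers, 1 was lower in each compartment (medians -0.08 and -0.28). Of 5 myeloid markers, 2 were higher in villi and 1 in crypts. The part of any of these cell types in the Fgfr1 and Fgf13 differences was not tested.

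Fgf9 had 6.50, 6.42 and 6.26 in villi and 6.42, 6.52 and 6.27 in crypts, against 7.19 in E12 endoderm. Adult values were lower in both compartments, with -0.80 ± 0.18 in villi (1.74-fold, adjusted p = 0.013) and -0.79 ± 0.18 in crypts (1.73-fold, adjusted p = 0.022). Fgf7 and Fgf10 did not pass the test. Fgf7 had 6.48 to 6.75 in villi and 6.27 to 6.63 in crypts, against 6.22 in E12 endoderm. Fgf10 stayed under the 30th percentile in all 8 arrays of the table, with 4.90 to 5.30 in villi, 5.09 to 5.24 in crypts and 4.69 in E12 endoderm.

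Fgfr3 was the receptor without a call against E12 endoderm. Its probe set 1421841_at had 6.30, 6.01 and 5.90 in villi and 7.72, 7.08 and 6.82 in crypts, with 7.11 in E12 endoderm between the crypt values. The crypt difference was 0.10 with a 95% interval of -0.71 to 0.91 (adjusted p = 0.86). The villus difference was -1.03 ± 0.34 with all 3 villus arrays lower (adjusted p = 0.058).

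**Figure D2:**
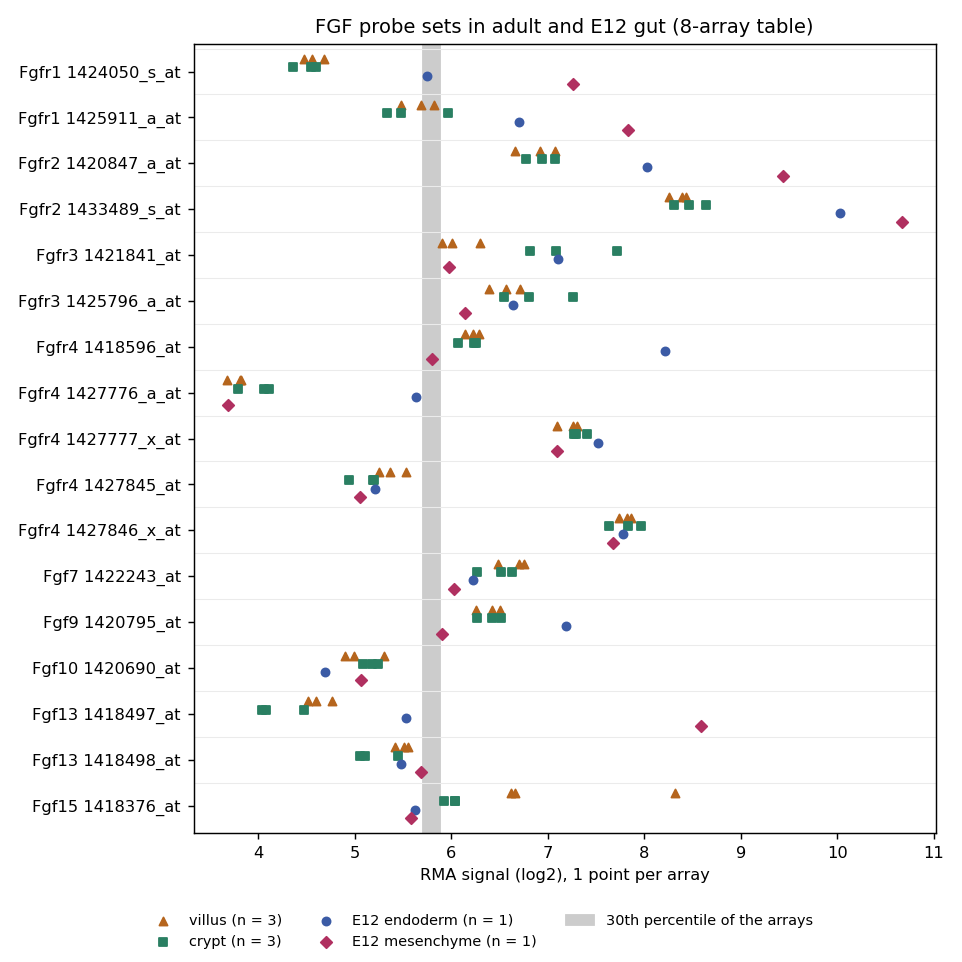
RMA signal (log2, horizontal axis) of the 17 FGF probe sets in villi (triangles, n = 3), crypts (squares, n = 3), E12 endoderm (circle, n = 1) and E12 mesenchyme (diamond, n = 1) of the 8-array table; the grey band is the range of the arrays' 30th percentiles. Villi and crypts overlap for most probe sets and lie left of E12 endoderm for Fgfr1, Fgfr2, Fgfr4 1418596_at and 1427776_a_at, Fgf9 and Fgf13 1418497_at, while villi lie left of crypts for Fgfr3 1421841_at and right of them for Fgf15.

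Villi against crypts gave 1 call among the 17 probe sets, Fgfr3 1421841_at, and 0 were higher in villi. Over all probe sets, 12.4% were higher and 11.9% were lower in villi. The 3 villus arrays and the 3 crypt arrays did not overlap for 4 of the 17, against 42.3% of all probe sets. Both medians were 0.00.

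Fgfr3 1421841_at was 2.19-fold lower in villi, with the values given above. The difference was -1.13 ± 0.24 (adjusted p = 0.016), with every villus array below every crypt array. The call was lost without villus sample V275 (-1.05, adjusted p = 0.052) and without crypt sample K21 (-1.19, adjusted p = 0.056). The other Fgfr3 probe set, 1425796_a_at, had 6.71, 6.39 and 6.57 in villi and 7.26, 6.80 and 6.55 in crypts. Those overlapped, and the difference was -0.31 (95% interval -0.78 to 0.15, adjusted p = 0.31). With 1421841_at, the E12 arrays had 7.11 in endoderm, among the crypt values, and 5.98 in mesenchyme, among the villus values. With 1425796_a_at, they had 6.64 in endoderm and 6.14 in mesenchyme, the latter below every adult value.

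Fgf15 was the ligand with the largest difference between the adult compartments, and it missed the threshold. It had 8.32, 6.66 and 6.62 in villus samples V12, V41 and V275, against 6.04, 5.92 and 6.04 in crypt samples K12, K21 and K41. Every villus array was above every crypt array, and villus sample V12 stood well above the other villi. The difference was 1.20 ± 0.44 (95% interval 0.17 to 2.23, adjusted p = 0.092). Without villus sample V12 it was 0.64 and passed the test (adjusted p = 0.018). Against 5.62 in E12 endoderm, the villus difference was 1.58 ± 0.62 (adjusted p = 0.094), and 1.02 (adjusted p = 0.0066) without villus sample V12. The crypt difference was 0.38 (adjusted p = 0.70).

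Bile acid genes linked to Fgf15 varied between samples of a compartment too. Fabp6, the bile acid binding protein of ileal enterocytes, had 12.75, 12.84 and 10.57 in villus samples V12, V41 and V275 and 8.82, 11.66 and 12.44 in crypt samples K12, K21 and K41, against 4.73 in E12 endoderm. It was higher than in E12 endoderm in both, by 7.32 ± 1.43 in villi (adjusted p = 0.0078) and 6.25 ± 1.43 in crypts (adjusted p = 0.024), while villi and crypts overlapped (difference 1.08, adjusted p = 0.50). Slc51a had 12.00, 12.48 and 12.22 in villi, against 7.70, 9.79 and 10.71 in crypts, a difference of 2.83 ± 0.69 (adjusted p = 0.025), the only call among 5 such genes in that comparison (median 1.08). With villus sample V275 or crypt sample K21 left out, 0 of the 5 passed. In crypts against E12 endoderm 2 of the 5, Fabp6 and Nr0b2, were higher, with 0 calls without crypt sample K21 and 4 without crypt sample K12. In villi against E12 endoderm 2, Fabp6 and Slc51a, were higher, with 1 call without villus sample V275. Slc10a2, the ileal bile acid uptake transporter, had 4.10, 6.88 and 3.54 in villus samples V12, V41 and V275 and 3.27 to 3.84 in crypts, so the villus sample highest in Fgf15 was not the one highest in Slc10a2. The labels do not say which segment of the small intestine each sample came from.

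**Figure D3:**
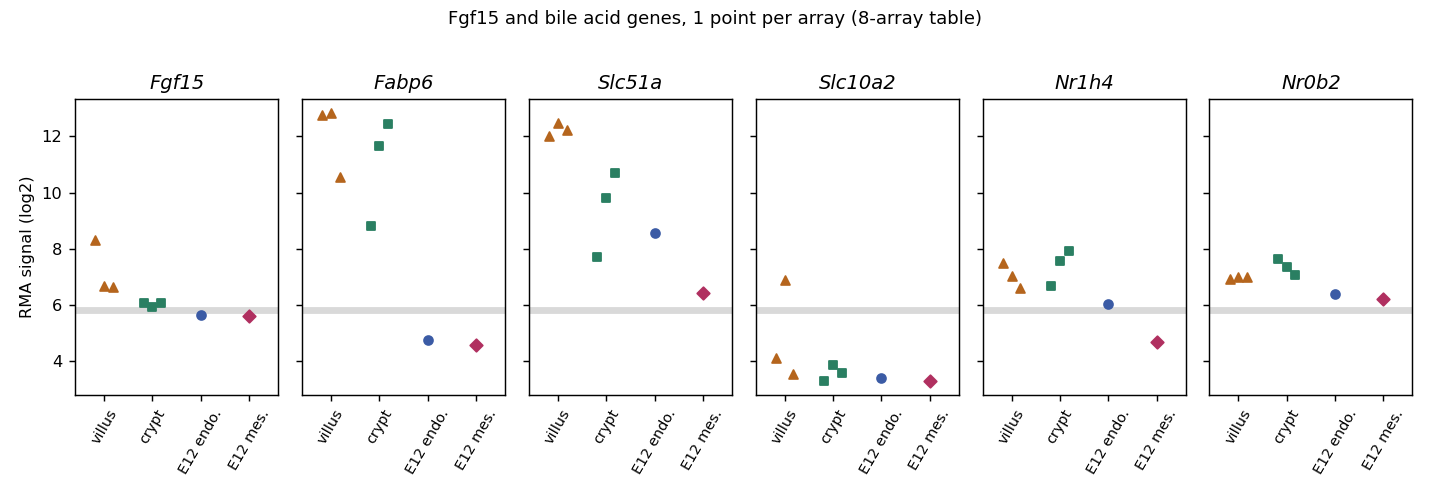
RMA signal (log2, vertical axis) of Fgf15 and of 5 bile acid genes in villi (n = 3), crypts (n = 3), E12 endoderm (n = 1) and E12 mesenchyme (n = 1), with arrays of a compartment in order of sample number from left to right; the grey band is the range of the 30th percentiles. Villus sample V12 has the highest Fgf15 signal, 8.32, and villus sample V41 the highest Slc10a2 signal, 6.88.

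The remaining members did not pass the test between villi and crypts. Fgf13 1418497_at was higher in all 3 villus arrays than in any crypt array, but by 0.43 ± 0.15 (adjusted p = 0.09) at signals under the 30th percentile. Without crypt sample K12 the difference was 0.57 and passed (adjusted p = 0.04). The 2 probe sets of Fgfr1, the 2 of Fgfr2, Fgfr4 1418596_at, Fgf7, Fgf9 and Fgf10 had differences between -0.11 and 0.17, and the 95% intervals of these stayed between -0.43 and 0.52. The other four Fgfr4 probe sets and Fgf13 1418498_at had differences between -0.22 and 0.29. Markers of T cells and intraepithelial lymphocytes were higher in villi for 6 of 6 genes, with a mean log2 signal of 8.93 to 10.03 in villi and 6.58 to 6.80 in crypts. Markers of mesenchyme, smooth muscle and endothelium gave 0 calls between villi and crypts. Whether lymphocyte RNA contributes to a member's signal was not tested.

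**Figure D4:**
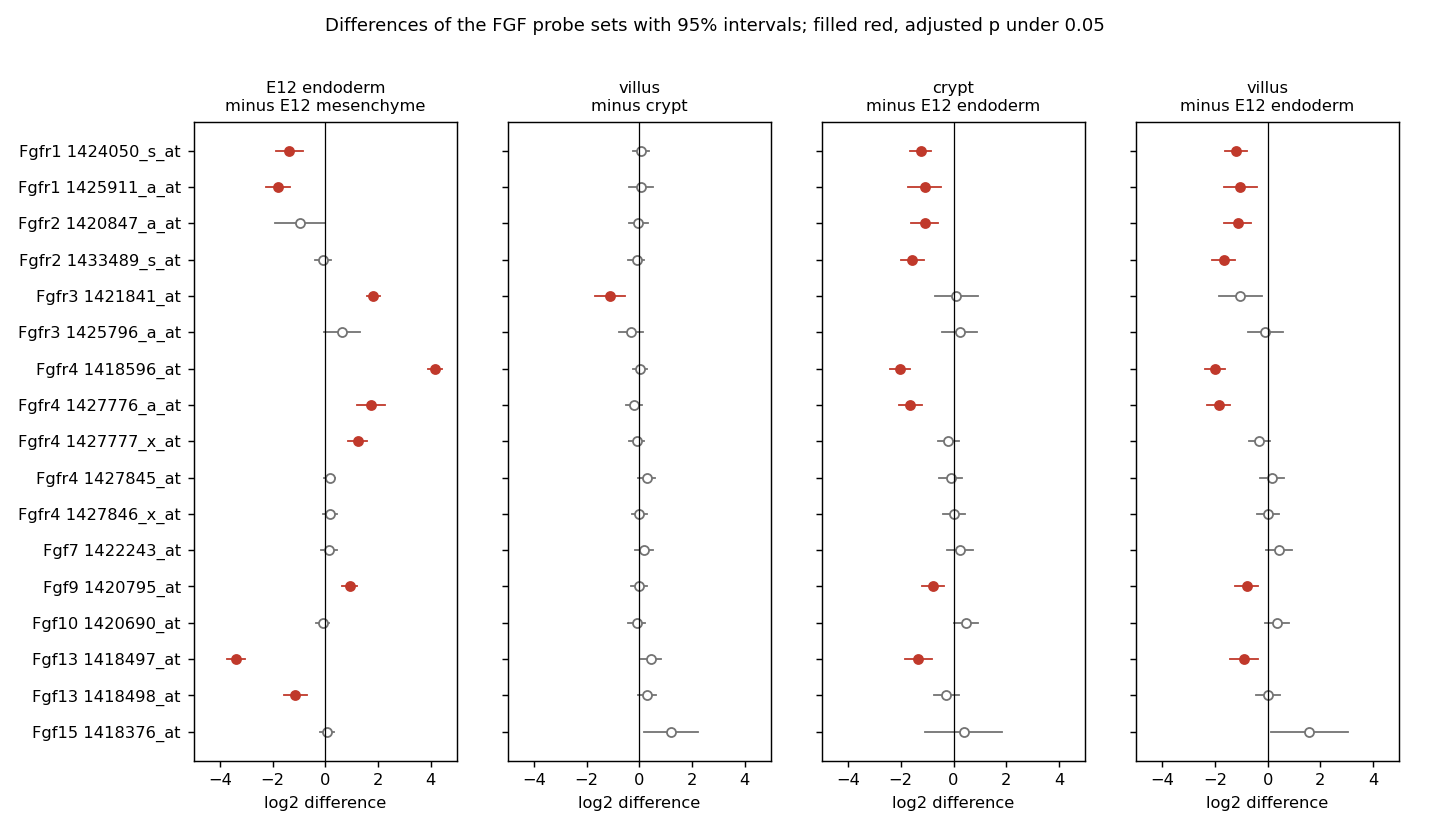
Log2 difference (horizontal axis, with 95% interval as a line) of the 17 FGF probe sets in the 4 comparisons; filled red points have an adjusted p under 0.05 in limma, and the group named first is on top of the difference. The E12 layers have 9 calls in both directions, villi against crypts 1, and both adult compartments against E12 endoderm 8 each, all lower.

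Among 9 feedback and target genes in villi against E12 endoderm, 1 was higher and 3 were lower, with a median of -0.23. Over all probe sets, 12.9% were higher and 19.0% lower, with a median of 0.11. In crypts, 0 were higher and 4 were lower, with a median of -0.21, beside 6.36% higher, 13.6% lower and a median of 0.07 over all probe sets. Spry1 had 6.89, 7.36 and 7.15 in villi and 7.12, 6.80 and 6.78 in crypts, against 9.20 in E12 endoderm, differences of -2.07 ± 0.23 (adjusted p = 0.00077) and -2.30 ± 0.23 (adjusted p = 0.0011). Spred2, a relative of the Sprouty proteins, was lower in crypts, with -1.63. Dusp6 had 9.68, 10.53 and 9.42 in villi and 7.54, 6.98 and 6.92 in crypts, against 7.35 in E12 endoderm. It was higher in villi than in crypts by 2.73 ± 0.31 (adjusted p = 0.0017) and than in E12 endoderm by 2.53 ± 0.44 (adjusted p = 0.0047). Villi against crypts gave 2 higher and 0 lower among the 9 (median 0.10), the second being Spred2 at 1.21.

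Between villi and crypts 3 of 12 transducers were higher and 0 lower (median 0.36), beside 12.4% higher and 11.9% lower over all probe sets. The largest differences were those of the ERK-activating kinases Map2k2 (1.49 ± 0.15, adjusted p = 0.0013) and Map2k1 (1.08 ± 0.30, adjusted p = 0.039). Villi against E12 endoderm had 1 higher, Map2k2 at 1.59, and crypts against E12 endoderm had 1 lower, Sos1 at -0.80. With crypt sample K12 or K21 left out, the crypt count was 0. Over all probe sets, 12.9% were higher in villi and 13.6% lower in crypts than in E12 endoderm.

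Among 16 coreceptors and heparan sulfate genes, Fgfrl1, a receptor without a kinase domain, had 6.79, 7.09 and 6.80 in villi, against 9.0, 9.11 and 8.41 in crypts. It was lower in villi, with a difference of -1.95 ± 0.21 (adjusted p = 0.0014), and the heparan sulfate editing enzyme Sulf2 was higher by 1.94. The list had 2 higher and 1 lower in villi against crypts (median -0.04), beside 12.4% higher and 11.9% lower over all probe sets. Against E12 endoderm, it had 1 higher and 5 lower in villi (median -0.04) and 1 higher and 2 lower in crypts (median -0.08). Over all probe sets, 12.9% were higher and 19.0% lower in villi, and 6.36% higher and 13.6% lower in crypts. Gpc3, a glypican of many fetal tissues, was lower in both, with -2.58 in villi and -2.68 in crypts, and Gpc4 was higher in both, by 2.82 and 1.57. Klb did not separate the adult compartments, with 6.50 to 6.66 in villi and 6.63 to 7.0 in crypts.

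The FGF carrier Fgfbp1 had 6.94, 5.83 and 5.75 in villi, against 7.69, 8.57 and 8.57 in crypts, and was lower in villi, with a difference of -2.10 ± 0.38 (adjusted p = 0.0087), the only call among 18 other ligands and binding proteins there (median -0.03). In crypts it was higher than in E12 endoderm by 2.20 (adjusted p = 0.029), again the only call (median 0.25), and 0 genes of the list were called there without crypt sample K21 or without crypt sample K41. Villi against E12 endoderm had 2 higher, Fgf11 at 0.60 and Fgf14 at 0.57, and 0 lower (median 0.25). That count was 0 without villus sample V275, and 1 without villus sample V41 or with a filter on dim signals.

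The splicing factors that favour epithelial receptor forms were lower in villi. Esrp1 had 8.41, 7.57 and 8.10 in villi, against 9.33, 9.07 and 9.22 in crypts, a difference of -1.18 ± 0.22 (adjusted p = 0.0097). Esrp2 differed by -1.92 ± 0.23 (adjusted p = 0.002), so 2 of 4 splicing regulators were lower and 0 higher (median -1.11). Over all probe sets, 11.9% were lower and 12.4% higher. Villi against E12 endoderm had 3 lower, with Ptbp1 at -2.07 and Esrp1 at -1.81 (median -1.63), beside 19.0% lower over all probe sets. Crypts against E12 endoderm had 0 calls of 4 in limma (median -0.48), the largest difference being that of Ptbp1, -1.02.

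**Figure D5:**
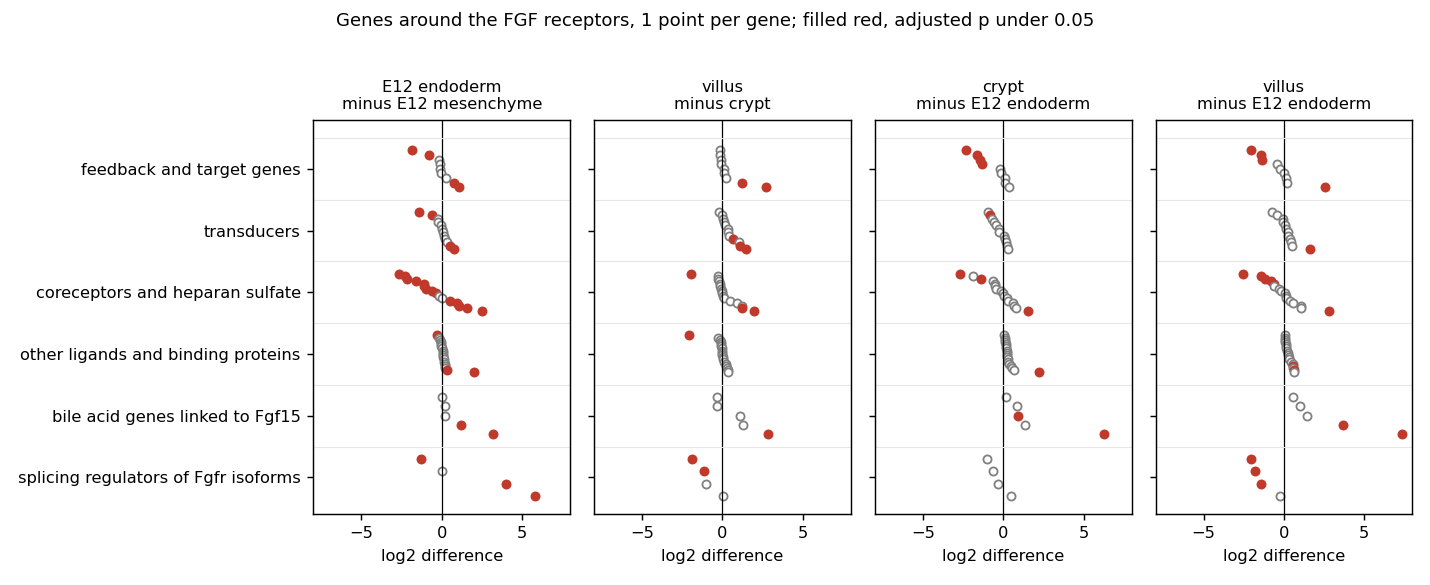
Log2 difference (horizontal axis) of the genes of 6 lists around the FGF receptors, 1 point per gene in its brightest probe set, in the 4 comparisons; filled red points have an adjusted p under 0.05 in limma. Esrp1 and Esrp2 stand far right between the E12 layers and left of 0 between villi and crypts, and Fabp6 stands at 7.32 and 6.25 in villi and crypts against E12 endoderm.

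Genes with a pattern like that of a member were ranked by the smaller of the Pearson correlations over the 6 and over the 8 arrays, among 2173 genes that range over at least 1 log2 unit in both tables. The arrays of a group cluster, so these values mostly describe group means, and they are given with no test. A gene stood by its brightest probe set in each table. For Fgfr1 these were 1424050_s_at over the 6 arrays and 1425911_a_at over the 8 arrays. For Fgfr3 they were 1421841_at over the 6 and 1425796_a_at, without a call between villi and crypts, over the 8. For Fgfr1 the nearest were Timp2 (0.98), Gpc1 (0.98) and Apbb1 (0.97). For Fgfr3 the nearest were St6galnac2 (0.91), Rnf32 (0.91) and Cldn18 (0.87), and for Fgf9 they were S100g (0.97), Alpl (0.96) and Ncmap (0.96). The brightest probe set of each other member ranged over less than 1 log2 unit in at least 1 table, and its neighbours are not listed.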

How the data were processed

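RNA was measured on 14 arrays of 22690 probe sets. The deposited values are log2 signals, which the authors made with RMA, per the submitters' processing notes; RMA corrects background, normalises arrays together and summarises the probes of a probe set. RMA's version is not given in the sources used here. Arrays carry no read depth, and their number limits the precision.

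Probe sets were named through the platform's gene table: 20393 had 1 symbol, 691 several and 1606 none, and those with 1 symbol were used. Entrez identifiers of 20364 were found in the RefSeq table of GRCm38.p6, and 0 symbols changed. No filter on dim signals was applied, because several ligands are dim. R 4.3.3 with limma 3.58.1 fitted all probe sets of a table by lmFit and eBayes, without covariates, in groups from the sample titles and source names. The adjusted p is that of Benjamini and Hochberg over all probe sets of a comparison, called under 0.05. E12 layers were tested on 6 arrays and the other comparisons in 1 fit of 4 groups on 8 arrays. The script was tested on simulated data.

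The labels give each E12 sample as a pool and each adult sample as from a mouse, and do not say whether samples sharing a number share an animal; the p-values measure the spread between these samples. No array repeated another. Members and gene lists were chosen with earlier results of these data known. Named were all members, the 2 called genes of each list with the largest differences (the most different gene of a list with no call) and, chosen after their values were seen, Klb, Etv4, Spry2 between the layers, Slc10a2, Fabp6 between villi and crypts, Rbfox2 and the marker genes. A list gene stands by its brightest probe set. List genes without a probe set of 1 symbol were not analysed here. Promoter windows are RefSeq's on GRCm38.p6. Alternatives covered scaling, a dim filter, 1 probe set per gene, the variance prior, left-out arrays, a replicate block and all E12 arrays together.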

Additional observations from a re-analysis of the deposited data

How the results depend on the processing

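Of the member differences recomputed, 204 of 209 kept direction and side of the threshold between the E12 layers, 174 of 190 between villi and crypts, and 118 of 122 in each comparison with E12 endoderm; the rest are named here or in the report. Signs turned for differences that were close to 0 and not called. Fgf10 between the layers became 0.01 with median centring. Fgf9 between villi and crypts became 0.04 with quantile normalisation, 0.03 with median centring and 0.11 with the replicate block. Fgf13 1418498_at in villi against E12 endoderm became -0.05 with quantile normalisation. With each array left out in turn, Fgf15 between the layers ranged from -0.02 to 0.16. Between villi and crypts, Fgfr1 1424050_s_at ranged from -0.01 to 0.11, Fgfr1 1425911_a_at from -0.06 to 0.26, Fgfr2 1420847_a_at from -0.13 to 0.07, Fgfr4 1418596_at from -0.03 to 0.07 and Fgf9 from -0.08 to 0.06. Against E12 endoderm, crypts ranged from -0.16 to 0.29 for Fgfr3 1421841_at and from -0.05 to 0.12 for Fgfr4 1427846_x_at, and villi from -0.01 to 0.05 for Fgf13 1418498_at. The lone E12 endoderm array cannot be left out. Called members between villi and crypts numbered 0 to 2 with an array left out. Calls over all probe sets then ranged from 2533 (without crypt sample K21) to 4747, and were 3116 without crypt sample K12, against 4949 in all; crypts against E12 endoderm ranged from 2527 (without crypt sample K21) to 4104, against 4079. With 1 probe set per gene, fewer features, 12394, were tested. Of 9 members, 5 were called between the layers, 0 between villi and crypts, 3 in crypts and 3 in villi against E12 endoderm. Calls over all genes were 5237, 3245, 2639 and 4252 in these comparisons, in the same order. The brightest probe sets of Fgfr3, Fgfr4 and Fgf13 in the 8-array table were 1425796_a_at, 1427846_x_at and 1418498_at, which did not pass the test. The dim filter tested 11 of 17 members there and called 5 in crypts and 5 in villi against E12 endoderm. Over all 15217 probe sets that it kept, 3361 were called in crypts and 5698 in villi. With the trend and robust prior, Fgfr3 1421841_at in villi against E12 endoderm passed (-1.03, adjusted p = 0.041). Same-numbered E12 samples deviated together at 0.09, 0.10 and 0.13, and not every sample correlated best with its own number, so the numbers were not taken to pair samples. The adult samples share 2 numbers, 12 and 41, at 0.15 and 0.08, each the best match of its samples, and the labels do not say that a number marks a mouse. The replicate block gave 7234 calls between the layers, with 9 members, and 1531 between villi and crypts, with 0 members, where Fgfr3 1421841_at was -1.11 (adjusted p = 0.073). With it, villi against crypts had 0 calls among other ligands and binding proteins (1 without it), 0 among bile acid genes (1), 1 among splicing regulators (2) and 1 among transducers (3), and the E12 layers had 1 among other ligands and binding proteins (3). In the adult block only numbers 12 and 41 occur in both compartments, so crypt sample K21 and villus sample V275 carry no weight in the difference. The adult calls lost with the block can therefore reflect lost precision, and the block does not decide whether those differences hold. List counts that moved over 1.5 times did so for lists with 3 or fewer calls; coreceptors in crypts against E12 endoderm had 6 without crypt sample K41.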
